A study of Rattus norvegicus with 8 samples.

Results

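Brain-derived neurotrophic factor, Bdnf (gene ID 24225), was followed through all 7 probe sets that GEO's platform annotation pairs with Bdnf and with no other gene, out of 8799 probe sets on the array. A probe set is a group of short probes on the array whose brightness is summarised as 1 signal. The gene was selected on measured values: its lower signal after 4 h of exposure than in untreated cells and than after 1 h was known beforehand, so both differences are given as a description, without a test. Bdnf is 1 of 4737 genes that the annotation gives at least 1 probe set of their own, and 6 of its 7 probe sets passed the filter on low signal.

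The study used primary smooth muscle cells grown from explants of pulmonary arteries of adult Sprague-Dawley rats, with endothelium and adventitia removed before culture. One group was left untreated, with no stated time in culture, and the other 3 groups were exposed to S-nitrosoglutathione (GSNO), a donor of nitric oxide, for 1, 2 or 4 h. Each group had 2 arrays, numbered 1 and 2, and no genetic change or other agent is named for any group. For the concentration of GSNO the sources disagree, with 100 μmol/L in the design text and 100 mmol/L in the protocol of the samples. Untreated cells were not sampled at each time, so time in culture and GSNO cannot be told apart. The series design names 2 independent preparations but does not tie them to the array numbers, so where both arrays of a group came from 1 preparation a p-value reflects array-to-array spread alone.

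Bdnf is a secreted growth factor of the neurotrophin family. It is made as a precursor, pro-BDNF, which is cut to the mature factor, and mature BDNF acts mainly through the receptor tyrosine kinase TrkB (Ntrk2), whereas the precursor binds p75NTR (Ngfr) together with sortilin (Sort1). The gene is best known from neurons, where activity and calcium drive its transcription through the factor CREB, but vascular smooth muscle also makes it. Several promoters each join their own 5' exon to a common coding exon, and alternative ends of the 3' exon give short and long transcripts. Probe sets of this gene can therefore read different parts of its transcripts.

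RefSeq's table of promoter windows for the GRCr8 build holds 6 windows for Bdnf, all on the plus strand of chromosome 3, where the gene runs from 116619633 to 116670212. Each window covers 250 bases before a transcript start and 50 bases from it. The first and last of these starts lie 20225 bases apart, and windows 5 and 6 share 244 bases. The 3 windows that held a searched motif are shown in the order in which they lie along the gene, with the matched letters in capitals, because the motifs are those of factor families known to act on Bdnf or in stress responses. The annotation used here gives no exon for a probe set, so no probe set was assigned to a window.
Bdnf window 2, chr3:116620585-116620884 (GRCr8, plus strand): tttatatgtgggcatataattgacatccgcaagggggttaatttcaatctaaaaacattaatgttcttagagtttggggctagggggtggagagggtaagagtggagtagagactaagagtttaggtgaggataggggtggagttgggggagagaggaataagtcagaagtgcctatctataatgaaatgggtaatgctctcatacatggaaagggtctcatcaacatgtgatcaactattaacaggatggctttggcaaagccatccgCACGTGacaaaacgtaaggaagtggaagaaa
Bdnf window 3, chr3:116621721-116622020 (GRCr8, plus strand): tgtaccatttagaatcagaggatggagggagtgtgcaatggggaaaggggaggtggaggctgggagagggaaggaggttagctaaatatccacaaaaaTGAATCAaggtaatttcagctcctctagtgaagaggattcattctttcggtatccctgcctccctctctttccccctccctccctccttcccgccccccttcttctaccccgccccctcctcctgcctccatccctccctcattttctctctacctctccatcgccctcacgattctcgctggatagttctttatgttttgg
Bdnf window 4, chr3:116637608-116637907 (GRCr8, plus strand): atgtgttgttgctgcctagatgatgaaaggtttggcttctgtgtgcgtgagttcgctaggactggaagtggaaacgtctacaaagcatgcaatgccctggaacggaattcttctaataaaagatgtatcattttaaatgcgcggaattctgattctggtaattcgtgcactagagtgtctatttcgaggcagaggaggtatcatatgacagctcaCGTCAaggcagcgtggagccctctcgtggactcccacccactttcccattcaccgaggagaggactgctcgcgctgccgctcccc

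Motifs were searched on both strands. TGACG, the short form of the cAMP response element bound by CREB, occurred in 1 of the 6 windows, as CGTCA in window 4 with its first base at -35 from the start, against 21.2% of all 33469 promoter windows. CACGTG, the E-box that factors such as USF bind, lay in window 2 at position 20 after the start, against 6.42% of all windows. TGANTCA, the element bound by AP-1 (dimers of Fos and Jun proteins), lay in window 3 as TGAATCA at -152, against 7.33% of all windows. The full cAMP response element TGACGTCA, which contains the short form, was in 0 of the 6 windows (1.83% of all windows), and TGACNNNGC, the core of the antioxidant response element, was also in 0 of 6 (12.1% of all windows). A match describes letters in a window and does not show binding.

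Signal of 4 Bdnf probe sets (rc_AI030286_s_at, X67108_at, D10938exon_s_at and S76799_at) was lower after 2 h than in untreated cells on both arrays, and still low or lower after 4 h. After 1 h these probe sets overlapped with the untreated cells. In a pair of weaker or more scattered probe sets, S71201mRNA_at and S76758_i_at, the lowest mean was also that at 4 h, but the 2 h arrays overlapped with the untreated ones, and 1 probe set, S71196mRNA_s_at, ran the other way at signals below the filter. Signals are linear values as deposited, and they are compared within a probe set only, since different probe sets have different probes.

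For rc_AI030286_s_at, a probe set designed from an expressed sequence tag, the untreated signal was 746 on array 1 and 810 on array 2. It was 533 and 917 after 1 h, 213 and 301 after 2 h, and 133 and 116 after 4 h. The 2 h arrays lay below both untreated arrays, and the 4 h arrays lay below both 2 h arrays. The mean signal after 4 h was 16.0% of the untreated mean, from 778 ± 45.0 (SD, n = 2) to 125 ± 12.2 (SD, n = 2).

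For X67108_at the untreated signal was 193 and 132 on arrays 1 and 2. It was 93.4 and 173 after 1 h, 44.5 and 45.5 after 2 h, and 11.9 and 25.0 after 4 h. In signal, the groups at 2 h and 4 h did not overlap with the untreated cells or with each other. All 4 of the arrays at 2 h and 4 h lay below the array's 40th percentile of signal, the level used as the filter. The size of this decline and the order of 2 h and 4 h are therefore uncertain. As a percentile of its own array, the 2 h signal numbered 1 stood at 23.6 and the 4 h signal numbered 2 at 25.0. In bulk RNA, fewer cells that express Bdnf and less Bdnf RNA per cell cannot be told apart.

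For D10938exon_s_at the untreated signal was 876 and 515. It was 682 and 769 after 1 h, 368 and 349 after 2 h, and 321 and 154 after 4 h. The 1 h values lay between the 2 untreated values, and the mean after 4 h was 34.1% of the untreated mean.

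For S76799_at the untreated signal was 860 and 679, followed by 654 and 701 at 1 h. It was 328 and 426 after 2 h, and 343 and 309 after 4 h. One 4 h array lay between the 2 h arrays, so these groups overlapped in signal, unlike those of the 3 probe sets above. The mean after 2 h was 49.0% of the untreated mean and that after 4 h was 42.3%.

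S71201mRNA_at was weak, with 66.0 and 58.9 in untreated cells, 58.3 and 113 after 1 h, 35.9 and 73.9 after 2 h, and 15.1 and 43.2 after 4 h. It reached the 40th percentile on 1 of the 2 arrays at 1 h and at 2 h and on 0 of 2 in the other groups. Only the 4 h arrays lay below both untreated arrays.

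S76758_i_at separated the array numbers more than the groups. On array 1 its signal was 418, 340, 558 and 238 in untreated cells and after 1, 2 and 4 h, and on array 2 it was 160, 136, 97.7 and 75.3. Within each number the 4 h array was the lowest of the 4, but the 4 h array numbered 1 lay above the untreated array numbered 2, so the groups overlapped. The suffix _i_at is the array maker's mark for an incomplete set, one with fewer probes than designed.

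S71196mRNA_s_at had 15.1 and 16.0 in untreated cells, 31.0 and 22.3 after 1 h, 39.5 and 62.9 after 2 h, and 56.6 and 62.4 after 4 h. All 6 GSNO arrays lay above both untreated arrays, which is the opposite order to the other probe sets. The signal stayed below the 40th percentile on all 8 arrays, so the probe set was not tested.

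**Figure D1:**
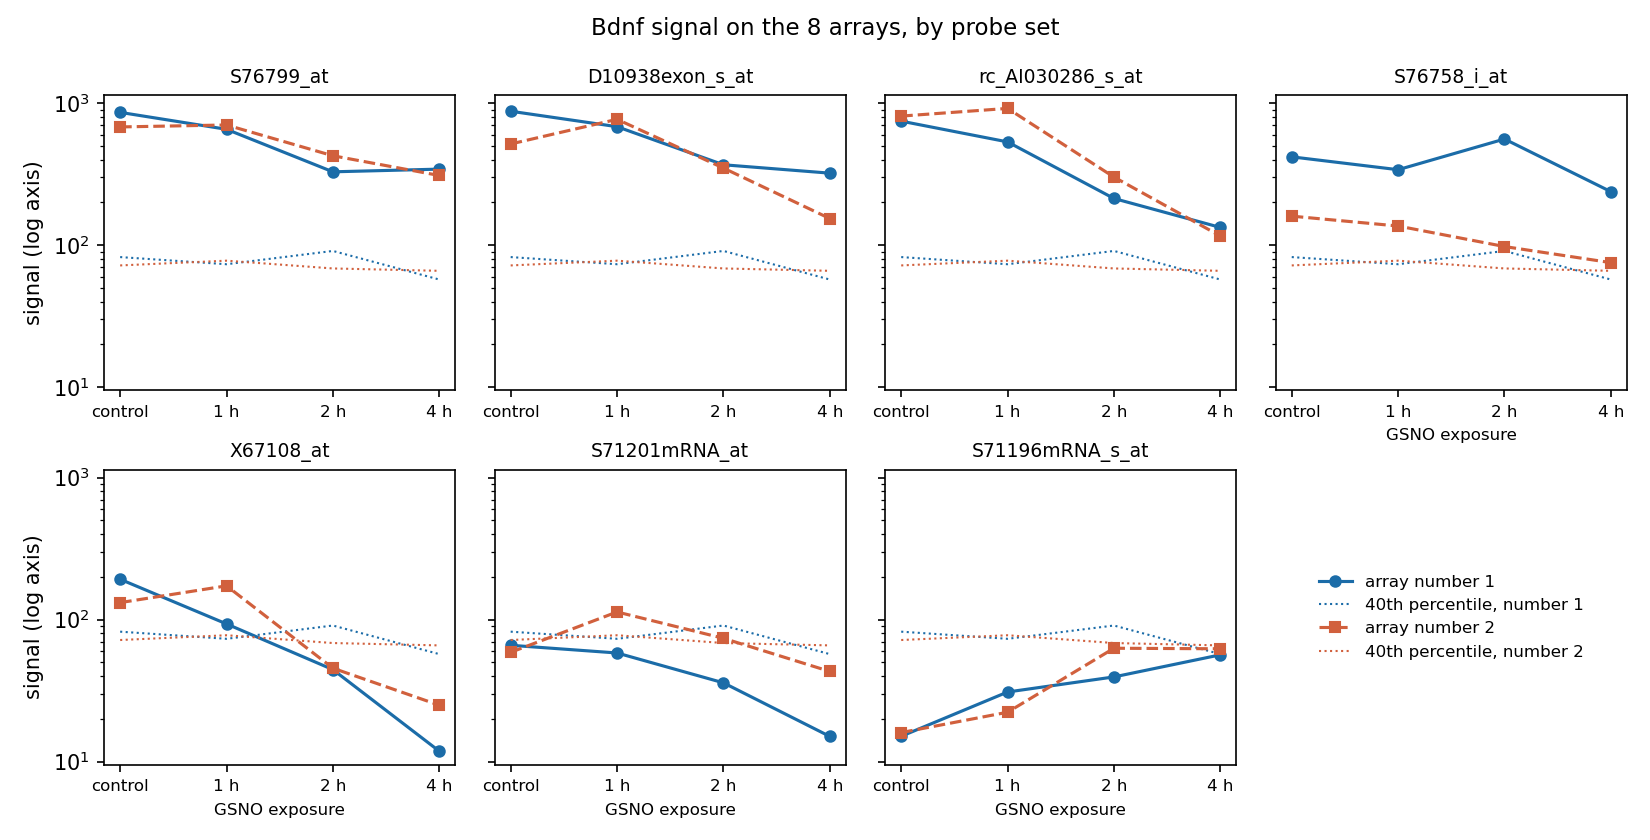
Deposited signal (log axis) of each of the 7 Bdnf probe sets against GSNO exposure, with circles for arrays numbered 1, squares for arrays numbered 2 and dotted lines for each array's 40th percentile. The panels of rc_AI030286_s_at and X67108_at drop in steps at 2 h and 4 h, S76758_i_at shows separate lines for the array numbers, and S71196mRNA_s_at climbs from 15.1 and 16.0 to 56.6 and 62.4 under the dotted lines.

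Fold changes were computed on log2(signal + 21.1), where the added offset understates the change of weak probe sets. They were tested with limma over all 5877 kept probe sets, those at or above the 40th percentile of their array on 2 or more of the 8 arrays. A probe set was called when its Benjamini-Hochberg adjusted p was under 0.05.

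After 1 h of GSNO, none of the 6 kept Bdnf probe sets passed the test against untreated cells. Both the untreated and the 1 h arrays entered the comparisons on which the gene was selected, so this test is not independent of that choice. Log2 fold changes of the 6 kept probe sets ran from -0.28 for X67108_at (SE 0.43) to 0.31 for S71201mRNA_at (SE 0.51), and limma's adjusted p was 1.00 for each, with 0 of 6 under an unadjusted p of 0.05 (3.01% of all kept probe sets). Called probe sets numbered 0 of 6, where 0.034% of all kept probe sets were called lower and 0.493% higher at this time. The number of Bdnf probe sets with both 1 h arrays below both untreated arrays was also 0 of 6, against 13% of all kept probe sets. The 2 array numbers disagreed in sign: the median of the 6 was -0.37 for arrays numbered 1 and 0.26 for arrays numbered 2, and D10938exon_s_at gave -0.35 and 0.56. No other array came from the chip lot of the 1 h array numbered 1. That array was also recorded in another experiment than the untreated array numbered 1. With the recorded experiment as the block, the median of the 6 was 0.05, against -0.16 without a block. The parts of the lot and of the experiment in this disagreement were not tested.

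After 2 h, all 6 kept probe sets had a negative log2 fold change, and the median was -0.93, against -0.06 over all kept probe sets. X67108_at passed the filter only through its untreated and 1 h arrays, which bears on the medians at 2 h and 4 h. S71196mRNA_s_at, which the filter left out, stood at 0.96, and the mean over all 7 Bdnf probe sets was -0.60. The largest difference was that of rc_AI030286_s_at, at -1.54 ± 0.32 (SE), followed by X67108_at at -1.45 ± 0.43, S76799_at at -0.99 ± 0.26 and D10938exon_s_at at -0.87 ± 0.38. S76758_i_at (-0.10 ± 0.84) and S71201mRNA_at (-0.18 ± 0.51) lay near 0. For 4 of the 6, both 2 h arrays lay below both untreated arrays, a pattern that 17% of all kept probe sets shared.

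None of these 2 h differences passed limma's threshold without a block. The adjusted p was 0.095 for rc_AI030286_s_at, 0.208 for S76799_at, 0.354 for X67108_at and 0.808 for D10938exon_s_at. Called Bdnf probe sets therefore numbered 0 of 6 (3 of 6 at an unadjusted p under 0.05, against 6.13% of all kept probe sets), where 0.187% of all kept probe sets were called lower and 0.783% higher.

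When the number of the array entered as a replicate block, 2 of the 6 passed at 2 h: rc_AI030286_s_at (adjusted p = 0.00928) and S76799_at (adjusted p = 0.0458). In that fit 0.97% of all kept probe sets were called lower. X67108_at (adjusted p = 0.128) and D10938exon_s_at (adjusted p = 0.216) did not pass. With the recorded experiment as the block, rc_AI030286_s_at alone passed (adjusted p = 0.0338), where 0.766% of all were called lower. The 2 h comparison shares its untreated arrays with the 4 h comparison on which the gene was selected, so it is not independent of that choice.

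Within the array numbers, the 2 h differences of these 4 probe sets were negative in both. That of rc_AI030286_s_at was -1.71 and -1.37 for arrays numbered 1 and 2, and that of S76799_at was -1.34 and -0.65. The median of the 6 kept probe sets was -1.27 for arrays numbered 1 and -0.63 for arrays numbered 2. When each array was left out in turn, the median at 2 h stayed between -1.20 and -0.66.

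After 4 h, the comparison on which Bdnf was selected, log2 fold changes ran from -2.46 ± 0.32 (SE) for rc_AI030286_s_at to -0.79 ± 0.51 for S71201mRNA_at. X67108_at stood at -2.21 ± 0.43, D10938exon_s_at at -1.50 ± 0.38, S76799_at at -1.18 ± 0.26 and S76758_i_at at -0.84 ± 0.84. The median was -1.34, with -1.33 for arrays numbered 1 and -1.35 for arrays numbered 2, nearly the same for both runs, although single probe sets differed between them (X67108_at -2.70 and -1.73, S71201mRNA_at -1.27 and -0.32 for arrays numbered 1 and 2). Both 4 h arrays lay below both untreated arrays for 5 of the 6, and for 27.5% of all kept probe sets.

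Over all kept probe sets the 4 h median was itself -0.16. Scaling every array to a common median moved it to -0.01, a shift of more than 0.1, and moved the Bdnf median to -1.18. Relative to all kept probe sets, the Bdnf median was -1.18 on the signals as deposited and -1.17 after that scaling, and all 6 kept probe sets stayed below 0 under both.

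Against 1 h of GSNO, which is also a comparison used to select the gene, the 4 h signal of rc_AI030286_s_at was lower by a log2 difference of -2.31 ± 0.32 (SE) and that of X67108_at by -1.94 ± 0.43. The median over the 6 was -1.35, against -0.13 over all kept probe sets. Within array numbers it was -1.09 and -1.60.

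In order of level, the untreated and 1 h arrays overlapped for each kept probe set, and the selection of the gene had used both groups. The 2 h cells were next, separate from untreated cells for 4 probe sets, and 4 h cells were lowest for all kept probe sets by mean signal. In deposited signal, the 2 h and 4 h arrays did not overlap for rc_AI030286_s_at, X67108_at and D10938exon_s_at, and they overlapped for S76799_at, S71201mRNA_at and S76758_i_at. By percentile within each array, only rc_AI030286_s_at stayed separate. D10938exon_s_at stood at percentile 71.7 on the 4 h array numbered 1 and at 69.5 on the 2 h array numbered 2.

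**Figure D2:**
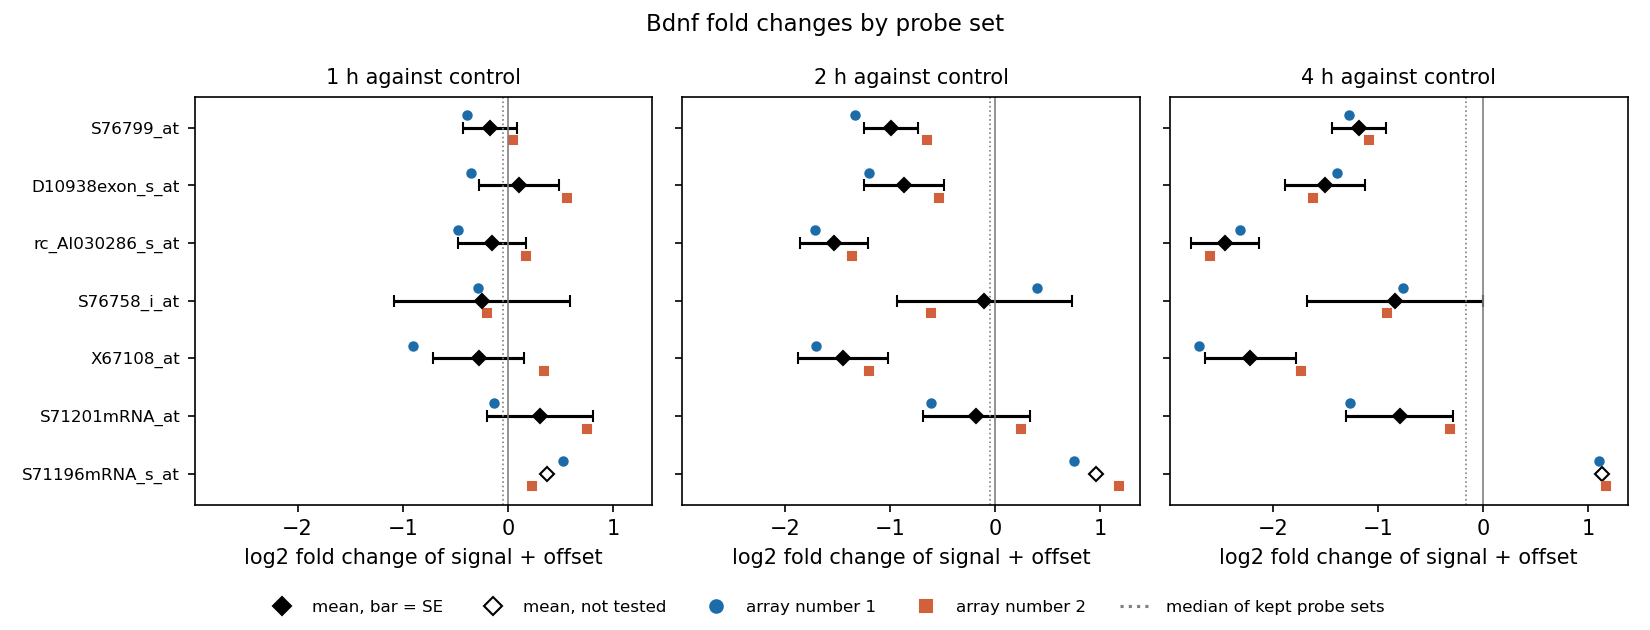
Log2 fold change of each Bdnf probe set at 1, 2 and 4 h against untreated cells, with black diamonds for the mean and bars for limma's SE, and circles and squares for the arrays numbered 1 and 2. At 1 h the circles and squares fall on both sides of 0 for most probe sets, while at 4 h all filled diamonds lie left of the dotted line at the median of all kept probe sets, from -0.79 to -2.46, and the open, untested diamond of S71196mRNA_s_at lies at 1.13.

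Agreement among the probe sets was described by Pearson's r over the 8 arrays. The probe sets share RNA, labelling and scan, so r is given without a p. The 15 pairs of kept probe sets had a median r of 0.769, from -0.273 to 0.965, and 14 of 15 were above 0. With the mean of each array number removed the median was 0.853, from 0.434 to 0.980, and 15 of 15 were above 0.

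The 4 probe sets named first formed a tight block. The highest r was 0.965, between rc_AI030286_s_at and X67108_at, and rc_AI030286_s_at and S76799_at had an r of 0.952. S76758_i_at had an r of 0.154 with rc_AI030286_s_at, which became 0.627 once the number means were removed. S71196mRNA_s_at had a negative r with all 6 others, down to -0.914 with X67108_at. Whether these probe sets differ in fold change from each other was not tested.

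**Figure D3:**
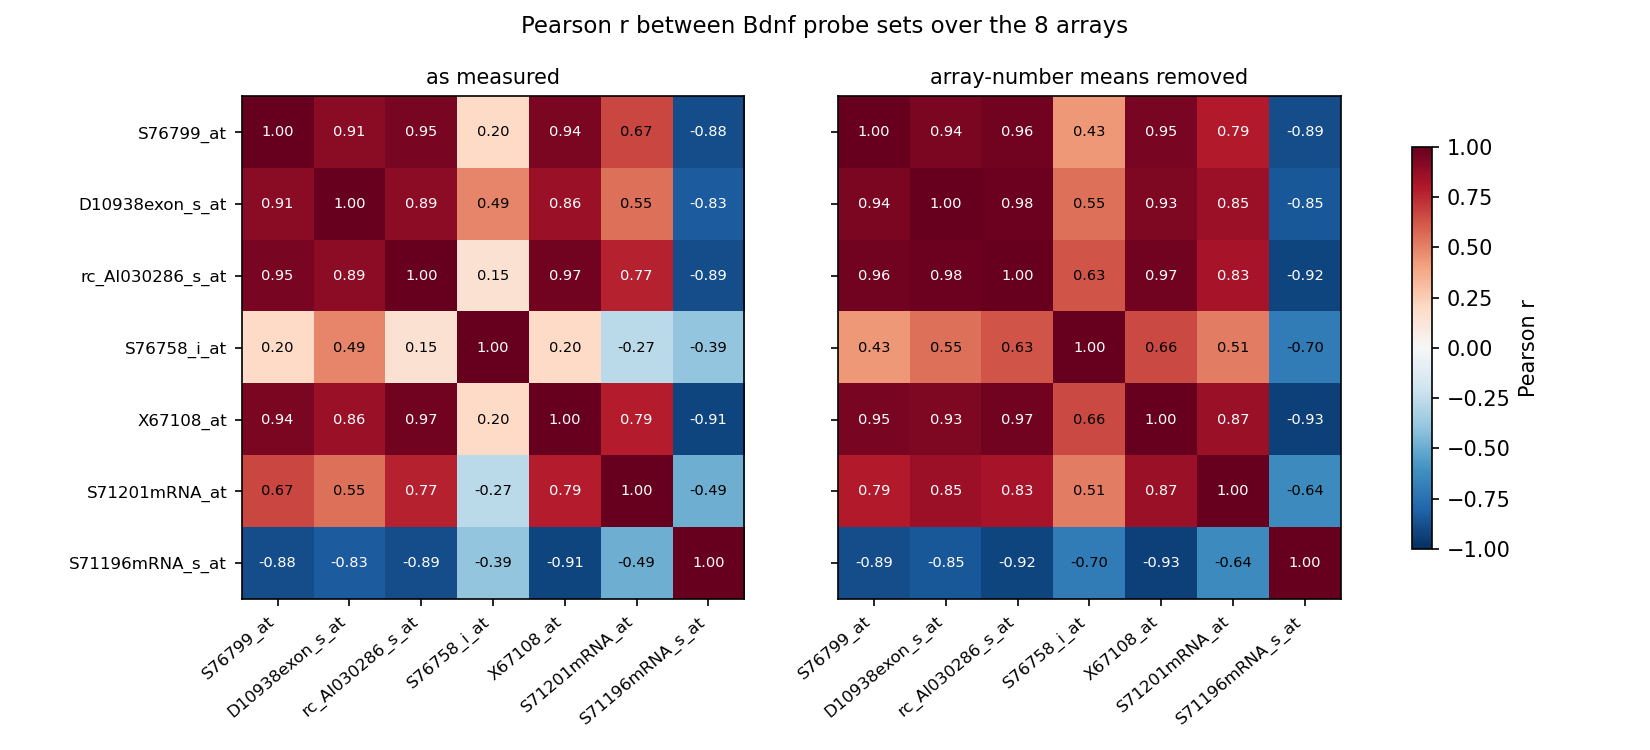
Pearson's r between each pair of Bdnf probe sets over the 8 arrays on the log2 scale, as measured (left) and after removal of each array number's mean (right), with red for positive and blue for negative r. The pairs among S76799_at, D10938exon_s_at, rc_AI030286_s_at and X67108_at are dark red in both panels, and the row of S71196mRNA_s_at is blue against all 6 others.

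The other neurotrophins, their receptors and receptor partners showed no called change. Of 15 genes listed, 7 were on the array and 6 were kept. Of these, 0 were called at 1, 2 or 4 h or between 4 h and 1 h, with or without the replicate block. Over all kept probe sets, 0.953% were called higher and 0.579% lower at 4 h without the block, and 4.25% and 3.68% with it. An unadjusted limma p under 0.05 was reached by 0 of 6 in each comparison. Over all kept probe sets these shares were 3.01%, 6.13%, 11.1% and 9.04% in the same order. A count of 0 of 6 is near these shares and says little about these genes. The median log2 fold change of the 6 was -0.25 at 1 h, -0.21 at 2 h and -0.27 at 4 h, against -0.05, -0.06 and -0.16 over all kept probe sets.

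Among the ligands, Ntf3 (neurotrophin-3, which acts mainly through TrkC) had signals of 200 and 77.5 in untreated cells and 256 and 81.8 after 4 h. The difference at 4 h was 0.19 ± 0.58 on the log2 scale (SE, limma adjusted p = 0.942). Ntf4 (neurotrophin-4, the other TrkB ligand) had 141 and 95.9 in untreated cells and 53.4 and 115 after 4 h, at -0.45 ± 0.43 (adjusted p = 0.758). The arrays of the 2 groups overlapped for both genes. The other probe sets of both genes were not kept; E03082cds_s_at of Ntf3 read 40.7 and 19.8 in untreated cells and 7.38 and 5.11 after 4 h, and Y07659exon_at of Ntf4 read 27.9 and 44.9 and then 26.6 and 44.3.

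Ntrk2, which encodes the BDNF receptor TrkB, had 2 probe sets, and neither was kept. The stronger, M55293_at, read 57.5 and 52.3 in untreated cells and 52.4 and 37.7 after 4 h, and the weaker, M55291_at, read 19.5 and 22.3 and then 11.4 and 15.0. TrkB signal was thus below the filter in this culture, which does not show that the receptor is absent.

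Ntrk3, which encodes TrkC, read 86.4 and 90.0 in untreated cells, 47.2 and 163 after 1 h, 25.0 and 37.6 after 2 h, and 32.0 and 36.2 after 4 h. These signals are those of S60953_s_at, whose 2 h and 4 h arrays all lay below both untreated arrays. Of all kept probe sets, 17% at 2 h and 27.5% at 4 h lay below in this way. The log2 fold changes of -1.07 ± 0.52 and -0.99 ± 0.52 (SE) did not pass (limma adjusted p = 0.939 and 0.556). The other Ntrk3 probe set, S62933_i_at, was not kept and overlapped, with 14.4 and 10.4 in untreated cells and 2.68 and 13.4 after 4 h. Ngfr, which encodes p75NTR, read 2407 and 1760 in untreated cells and 2066 and 360 after 4 h on U25650_f_at, and 248 and 186 and then 150 and 183 on X05137_at. Its fold changes at 4 h were -1.22 ± 0.74 and -0.34 ± 0.38 (adjusted p = 0.613 and 0.803). The suffix _f_at marks probes that a family of sequences can share, so the first of these is the less specific.

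Sort1, which encodes sortilin, a sorting and co-receptor protein for pro-neurotrophins, read 310 and 236 in untreated cells and 230 and 278 after 4 h (-0.09 ± 0.34, limma adjusted p = 0.959). Its other kept probe set, rc_AI070124_at, read 124 and 165 and then 78.2 and 129 (-0.43 ± 0.37, limma adjusted p = 0.718). Bex3, an adaptor that binds p75NTR, read 1794 and 1946 and then 2374 and 2406 (0.35 ± 0.21, adjusted p = 0.613). Both 4 h arrays of Bex3 lay above both untreated arrays, as they did for 788 of the 5877 kept probe sets.

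Genes for sorting and cleavage of pro-neurotrophins (such as furin, plasminogen activators and matrix metalloproteinases) were called in 0 of 13 kept members, of 24 listed, in each of the 4 comparisons. Over all kept probe sets, 0.204% to 0.953% were called higher and 0.034% to 0.579% lower. A count of 0 of 13 is near these shares and says little about these genes. At an unadjusted limma p under 0.05 there was 1 at 1 h, 1 at 2 h, 2 at 4 h (Plat, and Pcsk6 at 4 h) and 0 between 4 h and 1 h, against 3.01%, 6.13%, 11.1% and 9.04% of all kept probe sets in the same order. With the replicate block Plat alone passed, at 1, 2 and 4 h, where 1.14%, 2.19% and 4.25% of all kept probe sets were called higher. Plat encodes tissue plasminogen activator, which makes plasmin, a protease that cuts pro-BDNF to mature BDNF. Its signal was 1504 and 952 in untreated cells, 8052 and 3696 after 1 h, 11337 and 5248 after 2 h, and 8150 and 5474 after 4 h. All 6 GSNO arrays lay above both untreated arrays, and within each group the array numbered 1 was the higher. The log2 fold change was 2.17, 2.67 and 2.46 at 1, 2 and 4 h, with an SE of 0.49 without the block (limma adjusted p = 0.222, 0.0559 and 0.0594) and of 0.18 with it (adjusted p = 0.000126, 2.89e-05 and 3.65e-05). At 1 h and 4 h this block joins arrays numbered 1 from different recorded experiments.

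Genes of TrkB signalling (adaptors, Ras, MAP kinase, PI3 kinase and phospholipase C pathways) were called in 0 of 29 kept members, of 46 listed, in each comparison. Over all kept probe sets, 0.204% to 0.953% were called higher and 0.034% to 0.579% lower, so a count of 0 of 29 says little about these genes. An unadjusted limma p under 0.05 was reached by 0 at 1 h, 0 at 2 h, 4 at 4 h and 6 between 4 h and 1 h. Of all kept probe sets, 3.01%, 6.13%, 11.1% and 9.04% did so in the same order. With the replicate block, which called 4.25% of all kept probe sets higher and 3.68% lower at 4 h, Ywhaz, a 14-3-3 protein, was higher then (0.62, limma adjusted p = 0.0328) and Itpr1, the receptor for inositol trisphosphate that releases calcium, was lower (-1.17, adjusted p = 0.00521). Itpr1 read 853 and 1201 in untreated cells and 327 and 586 after 4 h, with no overlap. Between 4 h and 1 h, where the block called 2.65% of all kept probe sets higher and 2.45% lower, Fyn, a Src-family kinase, was higher (1.39, adjusted p = 0.0397) and Itpr1 lower (-1.13, adjusted p = 0.0102). Plat and these 3 genes, and Pcsk6, were named after their values were seen.

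Among 27 kept genes, of 51 listed, that are known to regulate Bdnf transcription, 2 rose at 1, 2 and 4 h and 1 fell at 4 h. Over all kept probe sets, 0.493%, 0.783% and 0.953% were called higher at these times and 0.579% lower at 4 h. Cebpb, a leucine zipper factor, rose from 884 and 966 in untreated cells to 5946 and 4629 after 1 h and stood at 4133 and 4460 after 4 h. Its log2 fold change was 2.48 ± 0.24 (SE) at 1 h and 2.19 ± 0.24 at 4 h (limma adjusted p = 0.00472 and 0.00397).

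Crem, whose gene encodes both activators and repressors of cAMP-responsive transcription, had 278 and 240 in untreated cells on S66024_g_at. It read 3137 and 2089 after 1 h, 6118 and 3892 after 2 h, and 5811 and 5189 after 4 h. The log2 fold change was 3.21, 4.13 and 4.30 ± 0.31 (SE) in that order (limma adjusted p = 0.00472, 0.000845 and 0.000771). Crem thus rose at 1 h, when the Bdnf groups still overlapped. Of its other probe sets, S66024_at and U04835_at were called at each time too, and Z15158mRNA_at was not kept.

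Egr1, an immediate early zinc finger factor, read 4446 and 2257 in untreated cells on AF023087_s_at, 2858 and 2527 after 1 h, 894 and 1111 after 2 h, and 811 and 805 after 4 h. The log2 fold change was -0.24 at 1 h, -1.65 at 2 h and -1.94 ± 0.33 (SE) at 4 h, and the last passed (limma adjusted p = 0.0308, against 0.0774 at 2 h). With the replicate block the 2 h difference passed too (adjusted p = 0.00631). Of the other 3 Egr1 probe sets, M18416_at was called at 2 h and 4 h, rc_AI176662_s_at at 4 h, and U75398_s_at at no time (-1.27 at 4 h, adjusted p = 0.277).

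With the replicate block, the 27 regulators held 3 called higher and 1 called lower at 2 h, with 5 and 3 at 4 h. Over all kept probe sets that fit called 2.19% higher and 0.97% lower at 2 h, and 4.25% and 3.68% at 4 h. Beyond the 3 genes above, these were Nfkb1, which encodes an NF-kB subunit, at 2 h (1.25, limma adjusted p = 0.00402) and 4 h (1.19, adjusted p = 0.00383), and at 4 h Bhlhe40 (1.20) and Ppp3ca (0.87) higher and Prkacb and Hdac2 lower (both -0.78). Between 4 h and 1 h, Crem and Nfkb1 were higher and Egr1 and Hdac2 lower with the block, and none was called without it. In that comparison the block called 2.65% of all kept probe sets higher and 2.45% lower. Nfkb1, Bhlhe40, Ppp3ca, Prkacb and Hdac2 were named after their values were seen.

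Bdnf is itself a CREB target. Against untreated cells, most called genes in the list of activity-regulated and CREB target genes rose, whereas the kept Bdnf probe sets had negative fold changes at 2 h and 4 h. Of 35 kept members, of 50 listed, 8 rose and 0 fell at 1 h, 9 rose and 0 fell at 2 h, and 8 rose and 1 fell at 4 h, beside the same shares of all kept probe sets called as for the regulators. The median log2 fold change was 0.40, 0.51 and 0.25, against -0.05, -0.06 and -0.16 over all kept probe sets. Several members also belong to the list of regulators (Crem and Egr1 among the called), and both lists were drawn up with results of these data known, so their direction is not independent evidence. With the replicate block 12 rose at 1 h, 14 rose and 3 fell at 2 h, and 9 rose and 4 fell at 4 h. In that fit 1.14%, 2.19% and 4.25% of all kept probe sets were called higher at 1, 2 and 4 h, and 0.97% and 3.68% lower at 2 h and 4 h. Between 4 h and 1 h the list went the same way as Bdnf, with a median of -0.47 against -0.13 over all kept probe sets. Without the block 0 were called higher and 2 lower there, where 0.204% and 0.272% of all kept probe sets were. With it 2 were higher and 8 lower, where 2.65% and 2.45% of all were.

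The members that rose at 1 h were Crem, Errfi1 (an inhibitor of the EGF receptor), Ier3, Klf4, the orphan nuclear receptors Nr4a1, Nr4a2 and Nr4a3, and Pde4b (a phosphodiesterase that degrades cAMP). Klf4, a zinc finger factor, went from 244 and 110 to 7063 and 5893 after 1 h (log2 fold change 5.11 ± 0.34 SE, adjusted p = 0.0017 by limma). Nr4a1 went from 745 and 272 to 12030 and 11413 after 1 h, then to 4495 and 8207 after 2 h and 1763 and 3020 after 4 h. It was called at 1 h and 2 h and not at 4 h (2.30, adjusted p = 0.0739), where it passed with the replicate block (adjusted p = 0.00968).

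Nr4a2 went from 143 and 114 to 2802 and 2768 after 1 h and was down to 279 and 378 after 4 h. It was lower at 4 h than at 1 h (-3.02 on the log2 scale, limma adjusted p = 0.0402). So was Ptgs2, the inducible prostaglandin synthase, which read 851 and 626 after 1 h and 92.2 and 50.6 after 4 h (-3.06, adjusted p = 0.0334). Of all kept probe sets 0.272% were called lower and 0.204% higher in this comparison. Against untreated cells, Ptgs2 at 4 h passed only with the replicate block (-1.48, adjusted p = 0.0351, against 0.170 without it). The weaker probe set of each gene, L08595_at and L25925_s_at, did not pass there, and both calls were lost when any of the 1 h, 4 h or untreated arrays was left out. Nr4a3 stood at 5.28, 5.40 and 3.70 on the log2 scale at 1, 2 and 4 h on rc_AI176710_at and was called each time, whereas its kept probe set X86003_at was called at none (1.59 at 1 h, adjusted p = 0.462).

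Il6, an interleukin, was called at 2 h and 4 h, with log2 fold changes of 3.85 and 4.36 (limma adjusted p = 0.00518 and 0.00229), and at 1 h with the replicate block only (2.07, adjusted p = 0.0274). Penk, the enkephalin precursor and a classical CREB target, was called at 4 h, from 133 and 243 to 597 and 729 (1.75 ± 0.32, adjusted p = 0.0432), and at 2 h with the block only (1.61, adjusted p = 0.00619). Errfi1 stood at 3.60, 3.04 and 2.21 at 1, 2 and 4 h, Ier3 at 2.28, 2.72 and 2.48, and Pde4b at 2.43, 3.18 and 2.76, all called. Among their other probe sets, M23572_at of Errfi1 and rc_AA799729_at of Pde4b were called at no time, X96437mRNA_at of Ier3 was called at 1 h only with the block (adjusted p = 0.0028, against 0.0967), and J04563_at and M25350_s_at of Pde4b were called at 2 h and 4 h only.

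Leaving out the 1 h array numbered 1 reduced the called genes of all pathway lists at 1 h from 9 to 2, and leaving out the 1 h array numbered 2 reduced them to 4. Leaving out the 4 h array numbered 2 reduced those at 4 h from 10 to 5.

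**Figure D4:**
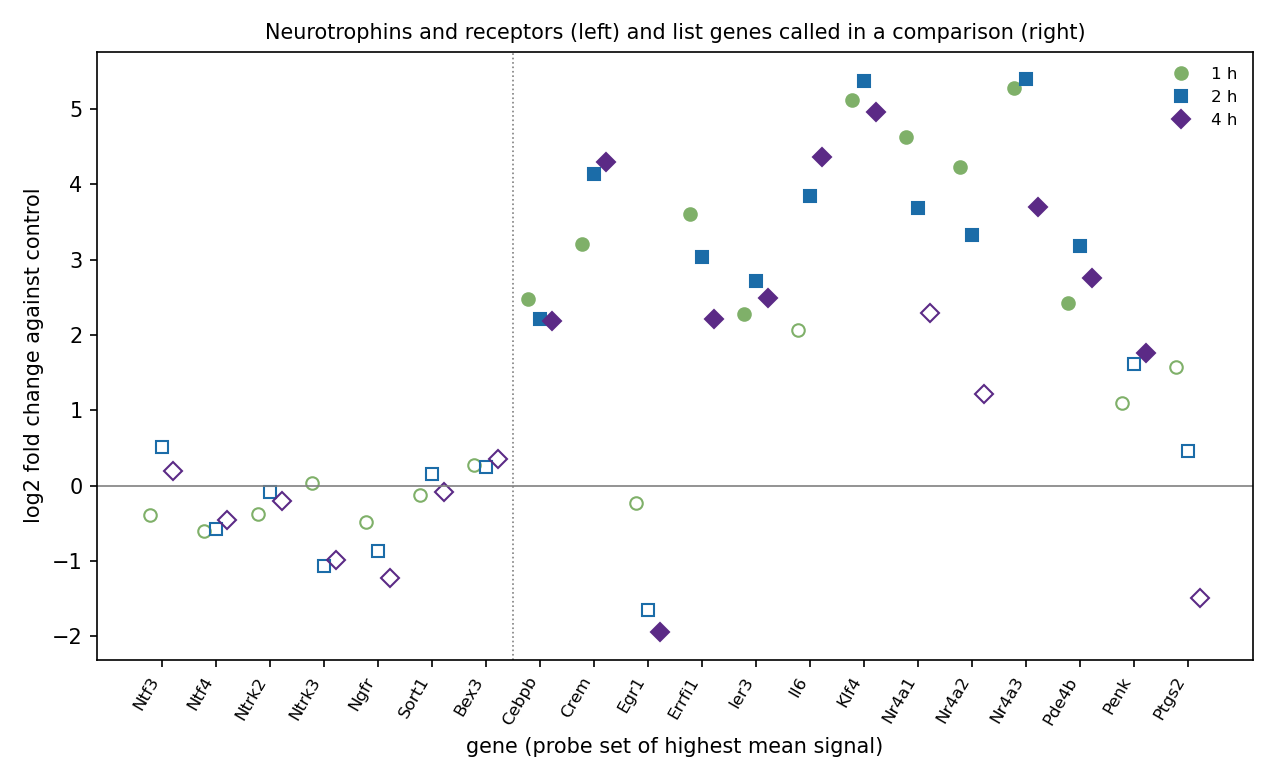
Log2 fold change against untreated cells at 1 h (circles), 2 h (squares) and 4 h (diamonds) for the neurotrophins, receptors and partners on the array (left of the dotted line) and for every list gene called in at least 1 comparison (right). Filled symbols passed limma's threshold and open ones did not or were not tested: the left side holds open symbols only, Egr1 lies below 0, and Klf4 lies near 5 at each time.

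The genes whose pattern was most like that of Bdnf were found by Pearson's r, over the 8 arrays, with the mean profile of the 6 kept probe sets. The candidates were 1950 genes, each read at its probe set of highest mean signal, which had to be kept and to vary enough. Since all points share the same 8 arrays and the gene was chosen for its decline, these r values are a description. The 10 highest were Fblim1 (0.964), Myadm (0.956), Svbp (0.951), Msmo1 (0.950), P2ry6 (0.949), Tnfrsf11b (0.942), Egr1 (0.942), Plpp1 (0.931), Slc10a2 (0.929) and Cnksr3 (0.922). With array-number means removed, their r lay between 0.933 for Cnksr3 and 0.988 for Fblim1. In all, 18 genes had an r above 0.9.

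These genes differed in what they encode and in the size of the decline. Fblim1, a filamin-binding protein of cell adhesions, had a mean signal of 7572 in untreated cells, 7097 after 1 h, 5044 after 2 h and 3967 after 4 h. Msmo1, an enzyme of cholesterol synthesis, went through 1475, 1435, 703 and 565. P2ry6, a receptor for extracellular nucleotides, went through 598, 409, 189 and 135.

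Tnfrsf11b, which encodes osteoprotegerin, a decoy receptor of the TNF receptor family, held at 4353 and 4026 in untreated and 1 h cells and then read 2083 and 553. Its 4 h log2 fold change of -2.92 was steeper than the Bdnf median, and that of Fblim1, -0.93, was shallower; neither difference was tested. The 10 genes were picked on these same arrays for likeness to a profile that is low at 4 h. Their lower signal at 4 h follows from that choice and is given here as a description, without a p.

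**Figure D5:**
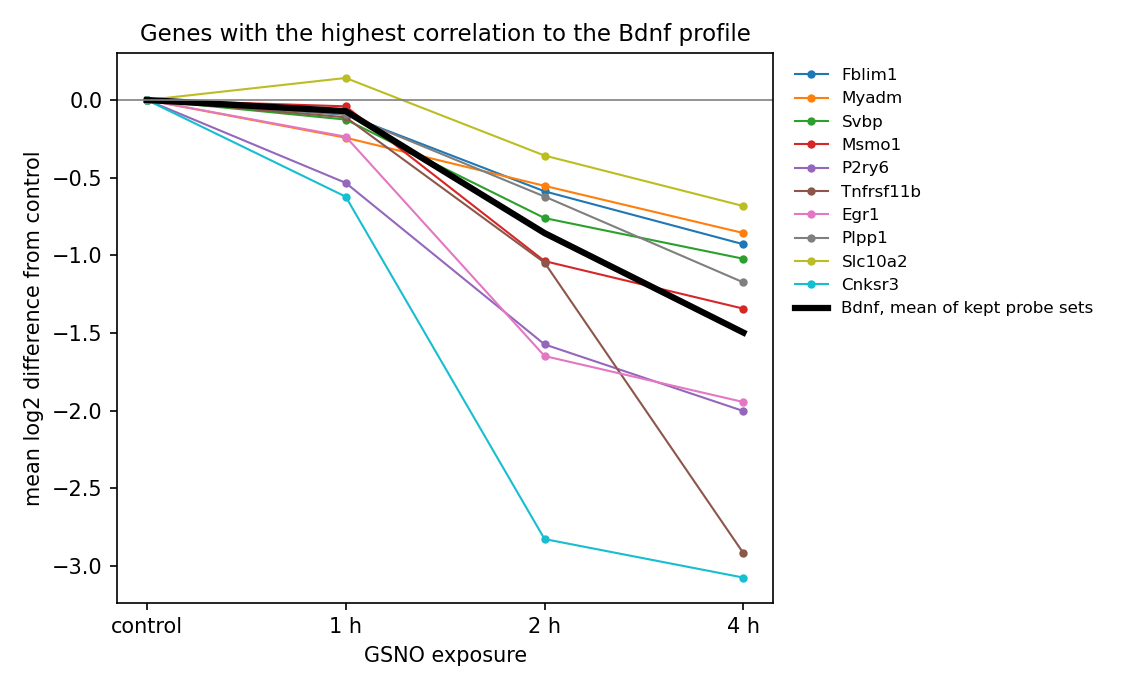
Mean log2 difference from untreated cells after 1, 2 and 4 h of GSNO for the 10 genes with the highest r with the Bdnf profile (thin lines) and for the mean of the 6 kept Bdnf probe sets (thick black line). At 1 h the thin lines lie between 0.14 for Slc10a2 and -0.62 for Cnksr3, and at 4 h they end between -0.68 and -3.07 for the same genes.

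The labelled cell type was checked against markers, with 1 probe set for each gene. Of 10 smooth muscle markers on the array, 9 were kept, and their summed signal with Des was 53720 to 76306 in untreated cells and 46930 to 72912 after 4 h. The kept markers included Acta2, Tagln and Myh11, and Des was not kept. Neuronal markers, which bear on a neurotrophin, were kept for 7 of 12 genes on the array, among them Snap25, Syn1 and Map2, while Syt1, Nefm, Nefh, Dbh and Chgb were not. Of all 8799 probe sets, 5877 were kept.

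The summed signal of the neuronal markers was 1060 to 1395 in untreated cells, 1039 to 1537 after 1 h, 1053 to 1646 after 2 h and 882 to 970 after 4 h, so the 4 h arrays lay below all others. Single markers differed widely in untreated cells. Chgb, a neuroendocrine marker that was not kept, read 4.69 and 1.83. Of the kept ones, Snap25 read 55.2 and 73.7, Syn1 199 and 225, and Map2 356 and 95.8. The part of neuronal RNA in the Bdnf decline was not tested.

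The summed signal of endothelial markers was 504 to 667 in untreated cells, 556 to 590 after 1 h, 401 to 426 after 2 h and 313 to 543 after 4 h. Both 2 h arrays thus lay below both untreated arrays, as for 4 Bdnf probe sets, while the 4 h arrays overlapped with the untreated ones. Its part in the Bdnf values was not tested. Of 5 endothelial markers on the array 3 were kept (Pecam1, Nos3 and Flt1), and Vwf and Kdr were not. Markers of Schwann cells and glia summed to 700 to 789, 565 to 862, 779 to 832 and 508 to 799 in the same order, and those of leukocytes and macrophages to 573 to 789, 569 to 764, 706 to 737 and 455 to 719. In each of these lists 3 of 6 genes on the array were kept.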

How the data were processed

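The deposited values are intensity values, 1 signal for each probe set, computed by the authors in version 5.0 of the Affymetrix software, per the design text of the series. The trimmed mean of all 8799 features, controls included, leaving out 2% at each end, differed from the mean of the 8 arrays by at most 0.0332%, so signals were used as deposited. Equal trimmed means do not make the arrays alike at lower signals. The median signal ran from 99.7 on the 4 h array numbered 1 to 140 on the 2 h array numbered 1, and the 40th percentile from 57.2 to 91.0 on the same arrays. There were no detection calls. The offset of 21.1 is the median over arrays of the 20th percentile. Log2 values were fitted with limma 3.58.1 in R 4.3.3 (lmFit with all 4 groups, eBayes with a trend, two-sided tests, Benjamini-Hochberg adjustment over 5877 kept probe sets, threshold 0.05), after a test on simulated data. The number of arrays limits the precision.

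Same-numbered arrays deviated together from their group means (r from 0.387 to 0.569 over the 6 pairs of groups, above the minimum of 0.1), and the scanner records put the numbers in 2 runs with different fluidics protocols. The numbers were therefore taken to pair the arrays, and values with this block are given beside those without it where they moved a count or a call of a gene's strongest probe set. The block does not alter fold changes, since every group holds both numbers. The records name 3 experiments: 1 holds the untreated and 2 h arrays numbered 1, another the 1 h and 4 h arrays numbered 1, and the last all arrays numbered 2. At 1 h and 4 h against untreated cells, the number block therefore joins arrays of different experiments. Its p-values there do not account for a difference between experiments. For single list genes no values with the recorded experiment as the block are given.

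The gene, its probe sets and the lists were chosen with earlier results of these data known. Named genes were every Bdnf probe set, all measured neurotrophins and receptors, each list gene whose strongest probe set was called in at least 1 of the 4 comparisons, and the 10 genes of highest r. Symbols came from GEO's platform annotation, with 7018 probe sets on 1 symbol; 6994 of their gene IDs were found in RefSeq. Promoter sequences are RefSeq's (GRCr8); no table of proteins was used here.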

Additional observations from a re-analysis of the deposited data

Results flagged for a closer look

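S71196mRNA_s_at was set aside because its signal was below the filter on all 8 arrays, yet all 6 GSNO arrays lay above both untreated arrays. Its log2 difference of 4 h from untreated cells was 1.13, 1.10 for arrays numbered 1 and 1.17 for arrays numbered 2, opposite to the other 6 Bdnf probe sets. It was not tested.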

How the results depend on the processing

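The median log2 fold change of the kept Bdnf probe sets kept its sign at 2 h, 4 h and between 4 h and 1 h under all alternatives run. Leaving out each array in turn gave -0.30 to 0.18 at 1 h, -1.20 to -0.66 at 2 h, -1.76 to -1.07 at 4 h and -1.59 to -1.32 between 4 h and 1 h. The 4 h median moved by more than the spread between array numbers, which was small, with arrays scaled to a common median (-1.18), quantile normalization (-1.23), offsets of 5 (-1.40) and 50 (-1.26), the mean over all 7 probe sets (-1.12) and the strongest probe set alone (-1.18). S76758_i_at between 4 h and 1 h ranged from -1.31 to 0.12 when each array was left out, and turned positive without the 1 h array numbered 1 (0.0057) and without the 4 h array numbered 2 (0.12).

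Taking the number of the array as a replicate block, called probe sets rose from 31 to 79 at 1 h, 57 to 186 at 2 h, 90 to 466 at 4 h and 28 to 300 between 4 h and 1 h; Bdnf calls went from 0 to 2 at 2 h, and list genes called to 14, 20, 22 and 14. Blocking on the recorded experiment instead, called probe sets were 40 at 1 h, 152 at 2 h, 165 at 4 h and 201 between 4 h and 1 h. With that block Bdnf calls were 1 at 2 h, and list genes 12, 18, 11 and 10 in the same order of comparisons. Fitting only the 2 groups compared gave 37 called at 2 h and 0 between 4 h and 1 h, with 0 list genes there. Without a variance trend, 4 probe sets and 0 list genes were called between 4 h and 1 h. Taking the median over a gene's probe sets left 0 list genes between 4 h and 1 h. Leaving out each array gave 5 to 27 called probe sets at 1 h, 19 to 52 at 2 h, 32 to 87 at 4 h and 0 to 23 between 4 h and 1 h. The ranges for list genes were 2 to 9, 7 to 11, 5 to 10 and 0 to 2, and Bdnf calls stayed at 0 at 1 h and 2 h. Bdnf calls were not counted at 4 h, where the gene was selected. The cause of these moves was not tested. Where a group kept 1 array, that array was assumed to vary like the other groups. Signals under the 40th percentile limit what X67108_at, S71201mRNA_at and S71196mRNA_s_at can show.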
